A study of Mus musculus with 95 samples.

Results

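In mouse embryonic stem cells labelled as lacking PCGF3 and PCGF5, the additional loss of PCGF6 was followed across all genes by comparing 2 RNA-seq libraries labelled Pcgf3/5/6-/- with 2 libraries labelled Pcgf3/5-/-, 4 of the 95 samples of the series. All lines derive from E14, a male mouse embryonic stem cell line, and were grown in serum with leukemia inhibitory factor and the inhibitors CHIR99021 (GSK3β) and PD0325901 (MEK1/2), so both groups are labelled as lacking Pcgf3 and Pcgf5 and share the same medium. Polyadenylated RNA was sequenced. The knockouts were made with Cas9 and guide RNAs, and lines lacking several genes were obtained by editing single-knockout clones again, per the labels. Each line is represented by 1 clone, named in the count table. Which clone was edited last to give the Pcgf3/5/6-/- line is not given in the sources used here. Nothing in the labels says whether the 2 libraries of a line came from separate cultures, so the p-values measure the spread between these libraries, which may be technical. Of 23377 genes in the count table, 13899 held enough counts to be tested. Libraries of E14 wild-type cells and of Pcgf6-/- cells, 2 each, served to set the change labelled as Pcgf6 loss alone beside it.

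PCGF proteins are the subunits that tell the variants of Polycomb repressive complex 1 (PRC1) apart. Each pairs with the ubiquitin ligase RING1A or RING1B, which adds a single ubiquitin to histone H2A (the mark H2AK119Ub1). That mark helps recruit PRC2, whose subunit SUZ12 supports trimethylation of histone H3 (the mark H3K27me3), and genes that carry these marks are usually silent. PCGF6 sits in a complex with MGA, MAX, E2F6, L3MBTL2 and CBX3, where MGA and MAX read the E-box CACGTG. In embryonic stem cells this complex is known for keeping germline genes silent, whereas PCGF3 and PCGF5 are known for placing much of the H2AK119Ub1 that lies outside classical Polycomb targets.

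The targeted genes were read first, as a check of the labels. Levels are given as CPM, a gene's counts relative to the library's total after TMM scaling, which assumes that most genes do not change, so all levels are relative to the rest of the transcriptome. TMM-based fold changes are on the log2 scale throughout. Pcgf6 lay at 23.1 and 24.01 CPM in Pcgf3/5-/- and at 43.3 and 38.4 CPM in Pcgf3/5/6-/-, higher in both Pcgf3/5/6-/- libraries (edgeR log2 fold change 0.80 with SE 0.16, adjusted p = 1.08e-05). In Pcgf6-/- it had 0 counts in both libraries. A transcript can persist without a functional protein, and the submitters report screening clones by PCR and Western blot. Pcgf5 lay at 5.44 and 4.72 CPM in Pcgf3/5-/- and at 16.9 and 13.95 CPM in Pcgf3/5/6-/- (edgeR log2 fold change 1.59 with SE 0.29, adjusted p = 2.04e-06). Pcgf3 lay at 11.3 and 13.2 CPM in Pcgf3/5-/- and at 13.99 and 13.95 CPM in Pcgf3/5/6-/- and did not pass the test (edgeR log2 fold change 0.20 with SE 0.26, adjusted p = 0.497). In the fit of 8 libraries, wild-type cells held 12.4 ± 1.58 CPM of Pcgf5 and 16.6 ± 0.682 CPM of Pcgf3, against 15.4 ± 2.06 and 13.96 ± 0.00587 CPM in Pcgf3/5/6-/- and 5.14 ± 0.505 and 12.4 ± 1.38 CPM in Pcgf3/5-/- (mean ± SD, n = 2). Pcgf5 RNA in Pcgf3/5/6-/- was thus not below wild-type, Pcgf3 RNA in both lines was somewhat below it, and Pcgf6 RNA in Pcgf3/5/6-/- (40.8 ± 3.37 CPM) was not below wild-type (36.7 ± 1.40 CPM). RNA therefore verified neither the Pcgf6 label of the Pcgf3/5/6-/- libraries nor the Pcgf3 and Pcgf5 labels of both lines, and all directions below are those of the libraries so labelled.

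Other properties of the libraries moved with the lines. The Pcgf3/5/6-/- libraries held 3120754 and 2912086 counts, the Pcgf3/5-/- libraries 7099900 and 5295194, and the 10 highest genes took 0.625% to 0.979% of a library. Genes of the Y chromosome were nearly absent from Pcgf3/5-/-: the 9 listed Y genes summed to 20 and 17 counts there, to 325 and 299 in Pcgf3/5/6-/-, to 2403 and 2354 in wild-type and to 30 and 17 in Pcgf6-/-. Genes of chromosome 14 with a mean log2 CPM of at least 2 had a median log2 fold change of -0.34 over 397 genes, against -0.15 to 0.10 on the other autosomes. Against wild-type, by log2 of CPM plus 1 in the fit of 8 libraries, their median difference was 0.21 in Pcgf3/5-/- and -0.16 in Pcgf3/5/6-/-. The other autosomes ran from -0.06 to 0.02 and from -0.21 to 0.07. Chromosome 14 thus stood apart in Pcgf3/5-/- and lay within the other autosomes in Pcgf3/5/6-/-. Pcgf6 loss and differences between clones cannot be told apart in this design. The fold change also followed the level of a gene. When genes were put into 10 equal groups by level, its median was 2.41 in the lowest group, -0.21 in group 7 and 0.14 in the highest. Within the Pcgf3/5-/- pair, the less deeply sequenced replicate 2 was the higher library for 1327 of the 1390 genes in the highest group. The part of depth in the results was not tested. Counts from a fit with loess offsets are given beside several lists of low genes. These offsets flatten the trend only in part: the median stayed at 0.78 in the lowest group and was -0.33 in group 2. In the other groups it lay between -0.02 and 0.08. The embryonic stem cell markers were present in both lines, and their sum over 5 genes was 1071 and 1330 CPM in Pcgf3/5-/- and 1500.5 and 1529 CPM in Pcgf3/5/6-/-. Among 10 fibroblast and feeder markers, Col3a1 was at 0 counts in all 4 libraries, and the 4 that were tested summed to 20.3 and 14.4 CPM in Pcgf3/5-/- and 43.3 and 42.6 CPM in Pcgf3/5/6-/-. Of 8 endothelial and blood markers, Hbb-bh1 and Ptprc were at 0 counts, and the 5 tested summed to 206 and 203 CPM against 237 and 221 CPM. The 4 tested of 6 muscle markers summed to 60.5 and 62.8 CPM against 46.2 and 48.8 CPM. At the adjusted p of 0.05 used below, 3 of the 4 fibroblast and 4 of the 5 endothelial and blood markers rose and 0 fell. Of the 4 muscle markers, 1 rose and 2 fell. Over all genes tested 32.9% rose and 28.8% fell. The part of these markers in the results was not tested. In bulk RNA, more cells that express a gene and more RNA per cell cannot be told apart.

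Most tested genes differed between the lines. At an adjusted p below 0.05, 8568 genes (61.6% of those tested) passed, of which 4568 rose (32.9%) and 4000 fell (28.8%), and the median log2 fold change over all genes was 0.04. The 4 libraries did not overlap between lines for 80.5% of genes. With a log2 fold change of at least 1 as a second condition, 2609 genes rose (18.8%) and 1453 fell (10.5%). Under loess offsets 4724 rose (34.0%) and 4488 fell (32.3%). Because so many genes passed, the counts of each gene list below are to be read against these shares.

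The genes that rose most were close to silent in Pcgf3/5-/-. Igf2, a fetal growth factor (chromosome 7, 149836673 to 149852721, minus strand, build mm9), lay at 0.796 and 0.590 CPM in Pcgf3/5-/- and at 282 and 283 CPM in Pcgf3/5/6-/- (edgeR log2 fold change 8.58 with SE 0.24, adjusted p = 1.84e-49). Car4, a membrane-bound carbonic anhydrase, lay at 0.133 and 0 CPM in Pcgf3/5-/- and at 105 and 104 CPM in Pcgf3/5/6-/- (edgeR log2 fold change 9.95 with SE 0.31, adjusted p = 2.36e-46). Alppl2, an alkaline phosphatase of early embryo and placenta, lay at 0.265 and 0.197 CPM in Pcgf3/5-/- and at 94.3 and 92.4 CPM in Pcgf3/5/6-/- (edgeR log2 fold change 8.46 with SE 0.28, adjusted p = 3.6e-44). In each of these genes both Pcgf3/5/6-/- libraries lay far above both Pcgf3/5-/- libraries. Rbm46, Dlx3 and 1600014K23Rik had no count in Pcgf3/5-/-. Against a floor of 3 counts over that group, Rbm46, an RNA-binding protein of germ cells, was at least 176-fold higher, the homeobox gene Dlx3 at least 189-fold and 1600014K23Rik at least 288-fold. Epn3 rose to 54.7 CPM, the serpin gene Serpinb9e to 42.6 CPM and Trim43a, an early embryo gene, to 50.0 CPM, all from at most 0.165 CPM. The last gene of the 10, Eif2s3y, lies on the Y chromosome and went from 0.165 to 63.7 CPM.

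Among the genes that fell most, Plagl1, an imprinted zinc-finger gene (chromosome 10, 12810497 to 12851500, plus strand), lay at 254 and 274 CPM in Pcgf3/5-/- and at 4.55 and 5.93 CPM in Pcgf3/5/6-/- (edgeR log2 fold change -5.65 with SE 0.21, adjusted p = 7.75e-41). Cdx1, a homeobox gene activated by WNT, lay at 56.5 and 60.8 CPM in Pcgf3/5-/- and at 2.60 and 2.09 CPM in Pcgf3/5/6-/- (edgeR log2 fold change -4.62 with SE 0.25, adjusted p = 1.78e-29). Pglyrp1, which encodes a peptidoglycan recognition protein, lay at 74.1 and 86.8 CPM in Pcgf3/5-/- and at 3.58 and 3.14 CPM in Pcgf3/5/6-/- (edgeR log2 fold change -4.56 with SE 0.21, adjusted p = 6.09e-34). Each dropped in both Pcgf3/5/6-/- libraries far below its Pcgf3/5-/- level, as the plot of the 20 genes by library shows. Osm, a cytokine of the leukemia inhibitory factor family, fell from 26.7 to 1.19 CPM, the serotonin receptor gene Htr5a from 24.04 to 0.825 CPM, and Igfals from 23.1 to 1.17 CPM. Glb1l, Ushbp1, Bpifb5 and C330008G21Rik completed the set, with log2 fold changes of -4.76, -4.47, -4.29 and -4.51.

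**Figure D1:**
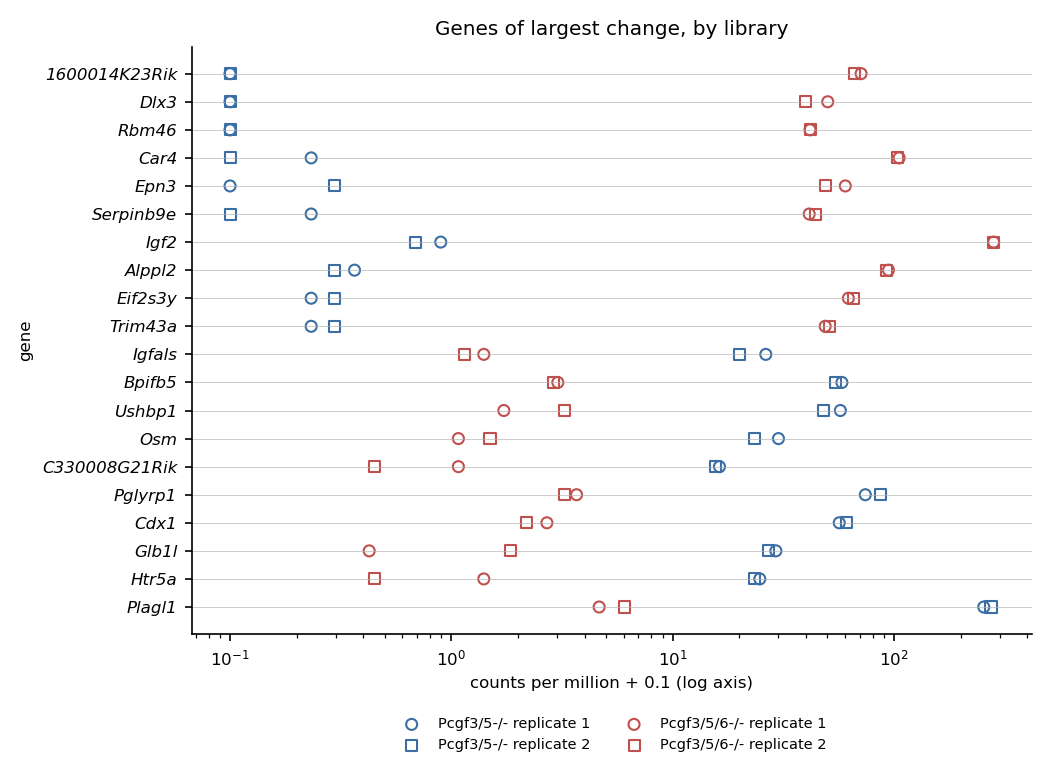
CPM of the 10 genes that rose most and the 10 that fell most (rows), on a log axis with 0.1 added, with 1 point per library; blue marks Pcgf3/5-/- and red Pcgf3/5/6-/-, circles replicate 1 and squares replicate 2. Igf2 lies below 1 CPM in both Pcgf3/5-/- libraries and at 282 and 283 CPM in both Pcgf3/5/6-/- libraries, and no gene shown has overlapping lines.

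**Figure D2:**
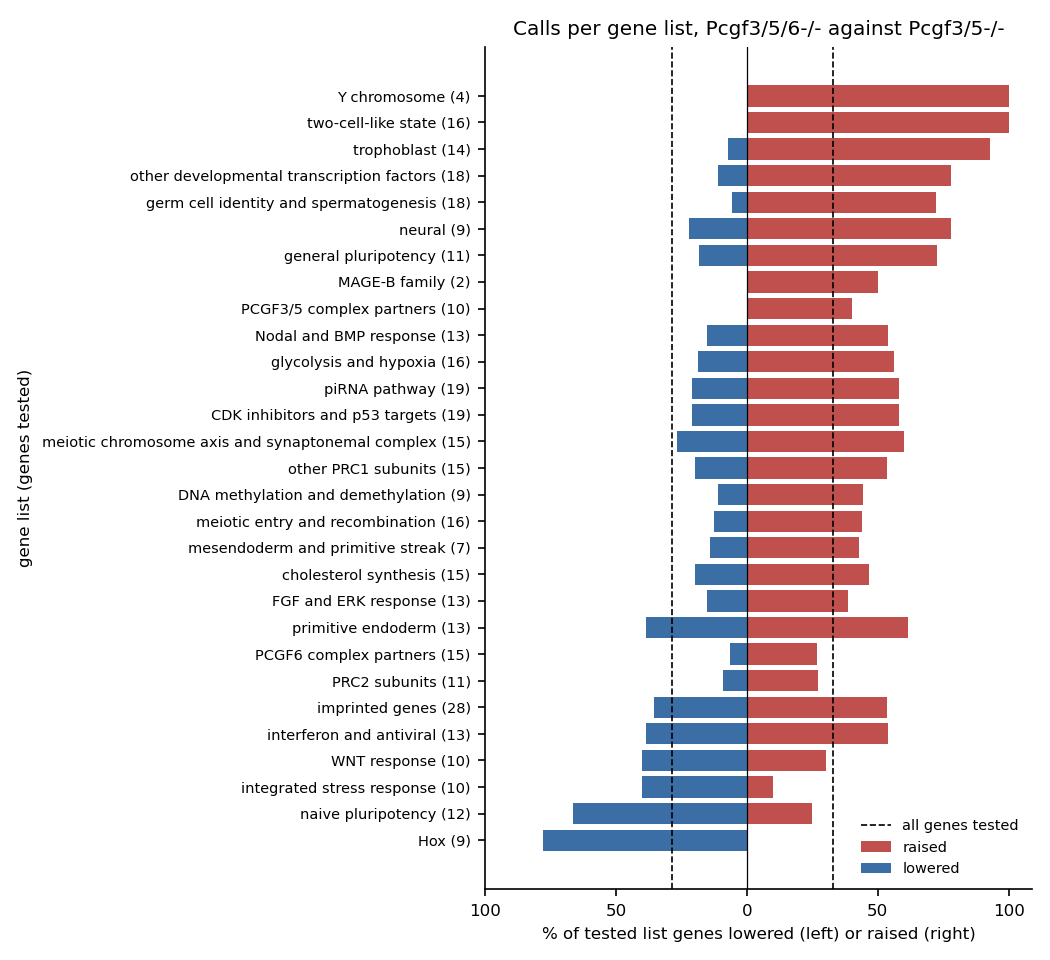
Percent of the tested genes of each of 29 lists that rose (red, right) or fell (blue, left) at an adjusted p below 0.05, with the number tested in brackets; dashed lines mark all genes tested, 32.9% raised and 28.8% lowered. The two-cell-like, trophoblast and germ cell identity lists lie far to the right, and the Hox and naive pluripotency lists lie furthest to the left.

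Germline genes are the known targets of the PCGF6 complex, and 4 lists of them were read: the meiotic chromosome axis and synaptonemal complex, meiotic entry and recombination, the piRNA pathway, and germ cell identity and spermatogenesis. Of their 68 tested genes, 40 rose, 11 fell and 17 did not pass, with a median log2 fold change of 1.03. A gene that passed the filter through 1 line alone had to differ, as for Mei1, Sycp2 and Henmt1, which had no count in Pcgf3/5-/-. How many did so is not given here. Without a filter on low counts, 11 of 17, 8 of 19, 11 of 20 and 13 of 18 rose, in the order in which the lists are named. In the same order 4, 4, 5 and 2 fell. Under loess offsets 40 rose and 13 fell, and the median was 0.87. The germ cell identity list had 13 of 18 genes raised and 1 lowered (median 1.91), and the piRNA list had 11 of 19 raised and 4 lowered (median 1.13). Under loess offsets these were 14 and 0 (median 2.04) in the germ cell identity list and 9 and 4 (median 0.37) in the piRNA list. In the synaptonemal list 9 of 15 rose and 4 fell, and in the meiotic entry list 7 of 16 rose and 2 fell (8 and 5 under loess offsets). With any 1 library left out, 13 to 15, 10 to 11, 8 to 9 and 5 to 7 genes rose in these lists in that order.

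Sequences are shown for genes chosen by a rule that required a PCGF6 peak in wild-type within 2.5 kb of the annotated start. Candidates were the up to 4 most raised genes of each germline list. Leading genes without such a peak, among them Tdrd1 and Sycp2, are therefore not shown. Henmt1 had a peak but was left out, because its window overlaps an exon. The 250 bases before the start are given, and the genes shown lost their RING1B peak between the lines. Over all germline genes, whether a PCGF6 peak went with a larger rise depended on the scaling. Of 29 with a PCGF6 peak in wild-type 16 rose and 7 fell (median 0.80, loess 0.91), and of 39 without one 24 rose and 4 fell (median 1.06, loess 0.82). PCGF6 peaks that overlapped one in Pcgf6-/- were left out, so a gene with only such a peak counts as without one. Peaks in Pcgf6-/- were called at 11 of the 68 genes, against 2.15% of all tested genes with an annotation. The E-box CACGTG, the site of MGA and MAX, and TCCCGC or its reverse complement GCGGGA, the core of an E2F site, are in capitals. Sequences run 5′ to 3′ toward the gene in genome build mm9. Gm1564 is the name used in the count table for Meioc.

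Mei1, chr15:81900176-81900425, plus strand: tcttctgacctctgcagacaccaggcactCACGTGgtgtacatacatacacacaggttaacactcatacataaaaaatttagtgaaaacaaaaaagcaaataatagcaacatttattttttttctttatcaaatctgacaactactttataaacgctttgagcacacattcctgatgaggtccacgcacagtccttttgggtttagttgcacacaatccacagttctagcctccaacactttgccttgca
Gm1564 (Meioc), chr11:102524780-102525029, plus strand: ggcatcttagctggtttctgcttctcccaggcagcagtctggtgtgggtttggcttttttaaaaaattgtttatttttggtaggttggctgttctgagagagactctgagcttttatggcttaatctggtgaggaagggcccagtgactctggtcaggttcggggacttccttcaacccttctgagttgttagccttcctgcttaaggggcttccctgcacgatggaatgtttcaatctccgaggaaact
Mael, chr1:168168876-168169125, minus strand: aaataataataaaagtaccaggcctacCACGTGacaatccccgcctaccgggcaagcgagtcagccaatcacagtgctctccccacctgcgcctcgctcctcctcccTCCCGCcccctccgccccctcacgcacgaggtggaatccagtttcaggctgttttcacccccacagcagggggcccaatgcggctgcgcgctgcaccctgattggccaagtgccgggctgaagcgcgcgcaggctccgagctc
Taf7l, chrX:131011030-131011279, minus strand: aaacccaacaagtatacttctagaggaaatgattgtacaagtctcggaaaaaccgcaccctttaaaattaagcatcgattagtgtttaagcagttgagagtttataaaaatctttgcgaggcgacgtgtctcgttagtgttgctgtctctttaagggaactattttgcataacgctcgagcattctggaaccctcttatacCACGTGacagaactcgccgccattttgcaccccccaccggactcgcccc
Syce3, chr15:89240935-89241184, minus strand: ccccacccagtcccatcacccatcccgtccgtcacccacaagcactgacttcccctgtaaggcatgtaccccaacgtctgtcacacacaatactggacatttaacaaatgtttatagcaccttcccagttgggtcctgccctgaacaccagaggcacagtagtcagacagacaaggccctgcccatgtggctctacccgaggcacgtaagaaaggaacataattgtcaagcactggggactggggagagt

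An E-box was present in 3 of these 5 windows, at base -221 before the start in Mei1, -223 in Mael and -49 in Taf7l, and an E2F core in 1, at -143 in Mael. Over the windows of all 68 germline genes the E-box was found in 29.4%, and in 37.9% of the 29 with a PCGF6 peak in wild-type, against 6.64% of 21853 promoters and 8.26% of those of genes tested. The E2F core was found in 29.4% and 31.0%, against 20.9% of all promoters and 28.2% of those of genes tested, and so lay near the share of genes tested. The E-box reads the same on both strands and neither motif overlaps the other. These matches describe letters in the window, not bound sites.

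Mael, which acts in the piRNA pathway (chromosome 1, 168131516 to 168168875, minus strand), lay at 5.44 and 5.31 CPM in Pcgf3/5-/- and at 244 and 251 CPM in Pcgf3/5/6-/- (edgeR log2 fold change 5.52 with SE 0.17, adjusted p = 2.26e-46). Ddx4, the germ cell RNA helicase VASA, rose from 10.4 ± 0.0628 to 235 ± 17.9 CPM (SD, n = 2), with a log2 fold change of 4.50. Tdrd1, a Tudor-domain scaffold of piRNA granules, lay at 0.265 and 0 CPM in Pcgf3/5-/- and at 27.7 and 27.9 CPM in Pcgf3/5/6-/- (edgeR log2 fold change 7.23 with SE 0.48, adjusted p = 6.01e-24). Tdrkh, another Tudor protein, rose from 3.79 to 137 CPM, and the helicase gene Mov10l1 from 16.0 to 172 CPM. Henmt1, the piRNA methyltransferase, had no count in Pcgf3/5-/- and was at least 53.8-fold higher. Piwil4, a PIWI protein, rose from 0.0663 to 3.92 CPM. In all of these the lines did not overlap. The piRNA genes that fell were already well expressed in Pcgf3/5-/-: Fkbp6 went from 191 to 123 CPM, Tdrd12 from 97.8 to 70.9 CPM, Gpat2 from 143 to 116 CPM and Pnldc1, a piRNA trimming nuclease, from 55.7 to 18.1 CPM. Without Pcgf3/5/6-/- replicate 2 only 2 of the piRNA genes fell, and Fkbp6 no longer passed.

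Among the meiotic genes, Mei1 (chromosome 15, 81900426 to 81957244, plus strand), which is needed for meiotic DNA breaks, had no count in Pcgf3/5-/- and 37.7 and 29.6 CPM in Pcgf3/5/6-/-, at least 142-fold higher. Stra8, the retinoic acid target that opens meiosis, lay at 9.68 and 8.27 CPM in Pcgf3/5-/- and at 146 and 150.3 CPM in Pcgf3/5/6-/- (edgeR log2 fold change 4.02 with SE 0.14, adjusted p = 4.9e-43). Tex11, which acts at crossovers, rose from 18.3 to 154 CPM. The axis gene Sycp2 was at least 34.7-fold higher, its partner Sycp1 had a log2 fold change of 2.09, the central element gene Syce3 of 2.87 and Meioc of 6.51. Stag3, a meiotic cohesin subunit, moved the other way and lay at 136 and 134 CPM in Pcgf3/5-/- and at 31.6 and 30.7 CPM in Pcgf3/5/6-/- (edgeR log2 fold change -2.12 with SE 0.13, adjusted p = 1.19e-25). The telomere attachment genes Terb2 and Majin fell from 62.0 to 23.0 CPM and from 28.3 to 6.35 CPM, Hormad1 from 113 to 66.3 CPM, and the recombination gene Mei4 from 50.8 to 15.6 CPM. Dmc1, the meiotic recombinase, was at 18.4 and 19.8 CPM and did not pass the test. The genes named here that fell lay at 28.3 CPM or more in Pcgf3/5-/-, whereas Mei1 and Sycp2 had no count there.

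For germ cell identity, Taf7l (chromosome X, 130994657 to 131011029, minus strand), a germ cell paralog of a TFIID subunit, lay at 3.71 and 2.95 CPM in Pcgf3/5-/- and at 72.9 and 72.5 CPM in Pcgf3/5/6-/- (edgeR log2 fold change 4.41 with SE 0.20, adjusted p = 1e-34). The oocyte and spermatogonial factors Sohlh1, Figla and Nobox rose from at most 0.329 CPM to 16.7, 7.47 and 7.59 CPM. Dazl, an RNA-binding protein of early germ cells, rose from 23.7 to 74.3 CPM, and the testis ATP carrier gene Slc25a31 from 8.44 to 107 CPM. Dnd1 was the single gene of the list that fell (log2 fold change -0.31), and it no longer passed under loess offsets, in DESeq2, without Pcgf3/5-/- replicate 1 or without either Pcgf3/5/6-/- library. Of the MAGE-B testis antigens, 2 of 7 genes in the table were tested, and Mageb4 lay at 5.17 and 3.35 CPM in Pcgf3/5-/- and at 72.2 and 83.7 CPM in Pcgf3/5/6-/- (edgeR log2 fold change 4.13 with SE 0.19, adjusted p = 1.41e-34).

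RING1B peaks were lost from these promoters. Over the 78 annotated genes of the 4 germline lists, tested or not, 42 (53.8%) had a RING1B peak within 2.5 kb of the start in Pcgf3/5-/- and 3 (3.85%) in Pcgf3/5/6-/-. In wild-type 33 had one and in Pcgf6-/- 7. Over all 22045 annotated genes the share went from 16.0% in Pcgf3/5-/- to 8.28% in Pcgf3/5/6-/-. SUZ12 peaks went from 26 to 3 of these genes and H3K27me3 peaks from 45 to 10, against 17.5% to 13.5% and 21.5% to 20.2% of all genes. Wild-type had fewer of both than Pcgf3/5-/-. Among the 68 tested germline genes, H3K27me3 was called at 14 in wild-type, 39 in Pcgf3/5-/- and 6 in Pcgf3/5/6-/-. SUZ12 was called at 12, 23 and 0 of them in the same order. In contrast, 58 of 60 other developmental transcription factors had a RING1B peak in both lines, and Hox genes went from 35 to 37 of 39. PCGF6 itself was called at 33 of the 78 genes in wild-type and 30 in Pcgf3/5-/-, against 5.11% and 4.73% of all genes, after removal of peaks also called in Pcgf6-/-. Each peak list comes from 1 ChIP library, so these shares have no replicate check, and a peak that is not called may still hold signal. Genes whose promoter had RING1B in Pcgf3/5-/- and those without it both rose: 25 of 37 rose and 6 fell (median log2 fold change 1.16), and 15 of 31 rose and 5 fell (median 0.37).

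**Figure D3:**
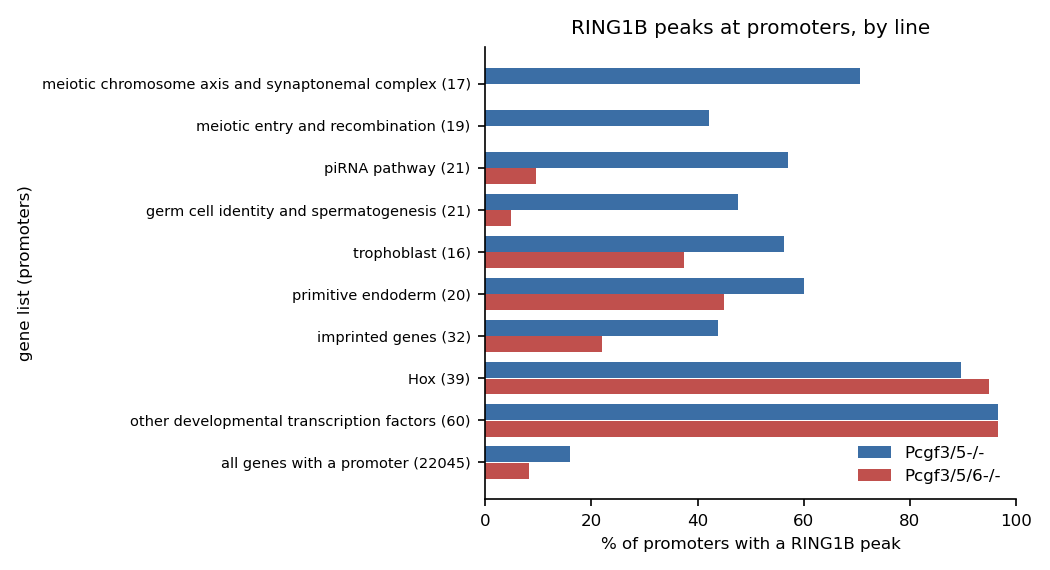
Percent of annotated promoters with a RING1B peak within 2.5 kb of the gene start in Pcgf3/5-/- (blue) and Pcgf3/5/6-/- (red), by gene list, with the number of promoters in brackets. The meiotic lists drop to 0.0%, whereas the other developmental transcription factors stay at 96.7%.

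Genes of the two-cell-like state, a transient state that resembles the 2-cell embryo, rose without exception among those tested: 16 of 16, with a median log2 fold change of 4.57 (14 to 16 with any 1 library left out, 16 under loess offsets). Many were low in Pcgf3/5-/-, and a gene that passed the filter through 1 line alone had to differ. Without a filter on low counts 16 of 17 rose and 0 fell. Their summed level was 28.5 and 26.6 CPM in Pcgf3/5-/- and 712 and 711 CPM in Pcgf3/5/6-/-. Tmem92 lay at 1.99 and 1.57 CPM in Pcgf3/5-/- and at 161 and 179.6 CPM in Pcgf3/5/6-/- (edgeR log2 fold change 6.53 with SE 0.18, adjusted p = 1.15e-49), and Zscan4d, a member of the Zscan4 family that marks this state, went from 5.08 to 119.7 CPM. Zfp352 went from 1.28 to 20.7 CPM and Sp110 from 2.08 to 57.6 CPM. The Zscan4, Usp17l and Tdpoz genes are near-identical copies, so their separate values are uncertain and the list holds fewer independent genes than its count. None of the 17 annotated genes had a PCGF6 peak at its start in wild-type or Pcgf3/5-/-, or a RING1B peak in Pcgf3/5-/- or Pcgf3/5/6-/-.

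Trophoblast genes, which mark the lineage that forms the placenta, rose in 13 of 14 tested cases (median 3.65), with the same counts in every fit that left out a library and under loess offsets. A gene that passed the filter through 1 line alone, as Hand1 did, had to differ. Without a filter on low counts 14 of 15 rose and 1 fell. Hand1 (chromosome 11, 57642207 to 57646320, minus strand), a trophoblast giant cell factor, had no count in Pcgf3/5-/- and 33.5 and 40.1 CPM in Pcgf3/5/6-/-, at least 155-fold higher. Plac1, a placental gene on chromosome X, lay at 0.398 and 0.787 CPM in Pcgf3/5-/- and at 148 and 157 CPM in Pcgf3/5/6-/- (edgeR log2 fold change 8.03 with SE 0.22, adjusted p = 8.04e-50). Krt7 lay at 2.65 and 1.77 CPM in Pcgf3/5-/- and at 222 and 220.4 CPM in Pcgf3/5/6-/- (edgeR log2 fold change 6.58 with SE 0.19, adjusted p = 5.98e-49), and its fellow keratins Krt8 and Krt18 rose from 114 to 595 CPM and from 45.9 to 432 CPM. The lineage factors Gata3, Gata2 and Tfap2c rose from 14.4 to 98.8 CPM, 2.51 to 44.4 CPM and 28.5 to 167 CPM, and the placental homeobox gene Esx1 from 0.231 to 46.2 CPM. Cdx2, an early factor of the same lineage, was the exception and fell in both Pcgf3/5/6-/- libraries: it lay at 111 and 105 CPM in Pcgf3/5-/- and at 19.2 and 20.9 CPM in Pcgf3/5/6-/- (edgeR log2 fold change -2.43 with SE 0.14, adjusted p = 4.23e-28). Prl3d1, a hormone of trophoblast giant cells, was at 0 counts in all 4 libraries. RING1B was called at 9 of the 16 promoters in Pcgf3/5-/- and at 6 in Pcgf3/5/6-/-.

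Imprinted genes, expressed from 1 parental allele, split: 15 of 28 rose and 10 fell (median 0.45), and 12 to 15 rose and 9 to 12 fell with any 1 library left out. Igf2, described above, and H19 are neighbours on distal chromosome 7. H19 lay at 3.05 and 3.15 CPM in Pcgf3/5-/- and at 207 and 225 CPM in Pcgf3/5/6-/- (edgeR log2 fold change 6.12 with SE 0.18, adjusted p = 2.09e-48), and Cdkn1c, a growth-restraining cyclin-dependent kinase inhibitor on the same chromosome, lay at 1.59 and 1.18 CPM in Pcgf3/5-/- and at 133 and 127 CPM in Pcgf3/5/6-/- (edgeR log2 fold change 6.49 with SE 0.19, adjusted p = 9.38e-48). Peg10, needed for the placenta, rose from 89.4 to 438 CPM, Phlda2 from 72.5 to 258 CPM and Dlk1 from 1.25 to 14.3 CPM. Asb4 had no count in Pcgf3/5-/- and was at least 14.8-fold higher. On the falling side, Zdbf2 lay at 165 and 174 CPM in Pcgf3/5-/- and at 23.1 and 16.0 CPM in Pcgf3/5/6-/- (edgeR log2 fold change -3.10 with SE 0.15, adjusted p = 1.75e-32) and Grb10, a growth inhibitor, went from 130.5 to 32.8 CPM. Meg3 and Rian, noncoding RNAs of 1 cluster on chromosome 12, had log2 fold changes of -0.90 and -0.58, opposite to Dlk1 of the same cluster. Igf2 and Cdkn1c had RING1B peaks in both lines, and H19, Plagl1 and Zdbf2 had none in either.

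Primitive endoderm genes rose in 8 of 13 tested cases and fell in 5 (median 1.21). Without a filter on low counts 13 of 20 rose and 5 fell. Lamb1, a laminin subunit of the basement membrane, lay at 3.98 and 4.13 CPM in Pcgf3/5-/- and at 129 and 124.2 CPM in Pcgf3/5/6-/- (edgeR log2 fold change 4.96 with SE 0.16, adjusted p = 7.16e-45), and the type IV collagen genes Col4a1 and Col4a2 went from 10.5 to 124.3 CPM and from 0.956 to 41.7 CPM. Dab2, an endocytic adaptor, rose from 0.890 to 47.1 CPM. The nuclear receptor gene Hnf4a fell from 21.0 to 3.36 CPM and Lama1, another laminin subunit, from 78.8 to 30.4 CPM. The lineage-defining factors Gata4, Gata6, Sox17 and Sox7 were too low to be tested. Between 2 and 5 genes fell when 1 library was left out.

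Most developmental transcription factors stayed too low to test, and those that passed the filter rose in 14 of 18 cases and fell in 2 (median 2.15; loess 10 and 3; 9 to 13 rose with any 1 library left out, 9 without Pcgf3/5/6-/- replicate 2). Only 18 of 60 genes were tested, and a gene that passed through 1 line alone had to differ. Otx2, a factor of epiblast exit, lay at 0.928 and 0 CPM in Pcgf3/5-/- and at 32.5 and 24.4 CPM in Pcgf3/5/6-/- (edgeR log2 fold change 5.63 with SE 0.40, adjusted p = 4.9e-22), and Msx2, a BMP target, went from 12.1 to 64.0 CPM. Pax8 and Irx3 had no count in Pcgf3/5-/- and were at least 21.1-fold and 15.7-fold higher. Meis2 fell from 101 to 31.3 CPM and Foxd3 from 5.41 to 1.17 CPM. Hox genes that passed the test went the other way. None of 9 tested genes rose and 7 fell (median -2.38), 4 without Pcgf3/5-/- replicate 1. Hoxc4 lay at 8.75 and 5.71 CPM in Pcgf3/5-/- and at 0.325 and 0 CPM in Pcgf3/5/6-/- (edgeR log2 fold change -5.25 with SE 0.74, adjusted p = 2.3e-09), and Hoxa10 went from 6.99 to 0.349 CPM and Hoxa2 from 3.33 to 0.174 CPM. Without a filter on low counts, 2 of 32 Hox genes rose and 9 fell.

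In the neural list 7 of 9 tested genes rose and 2 fell, and 4 rose without Pcgf3/5/6-/- replicate 1. Only 9 of 27 genes were tested, and without a filter on low counts 10 of 22 rose and 5 fell. The bHLH factors Neurog1, Olig1 and Neurod1 had no count in Pcgf3/5-/- and so passed the filter only through Pcgf3/5/6-/-, where they were at least 22.6-fold, 18.97-fold and 14.8-fold higher, at mean levels of 5.38, 4.51 and 3.51 CPM in Pcgf3/5/6-/-. Zic2 fell from 19.3 to 4.56 CPM. Of 7 mesendoderm genes tested, 3 rose and 1, Cdx1, fell (median 0.20). Under loess offsets 2 rose and 3 fell (median -0.58), and 3 fell without Pcgf3/5-/- replicate 2, so the balance of this list depended on these choices. Wnt3, the WNT ligand of the primitive streak, had no count in Pcgf3/5-/- and was at least 34.4-fold higher, and Mesp2 went from 3.23 to 24.2 CPM. The third, Kdr, lay at 3.05 and 2.56 CPM in Pcgf3/5-/- and at 9.76 and 2.09 CPM in Pcgf3/5/6-/-, where 1 Pcgf3/5/6-/- library was below both Pcgf3/5-/- libraries, and its direction turned without Pcgf3/5/6-/- replicate 1 (log2 fold change -0.43) and under loess offsets (-0.04).

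Pluripotency genes divided by class. Of 12 naive pluripotency genes, 8 fell and 3 rose (median -0.77, loess -0.66). Gbx2 lay at 71.1 and 72.4 CPM in Pcgf3/5-/- and at 13.99 and 11.9 CPM in Pcgf3/5/6-/- (edgeR log2 fold change -2.47 with SE 0.16, adjusted p = 1.7e-24), Klf5 went from 112 to 41.7 CPM and Klf2 from 38.8 to 16.4 CPM. Tfcp2l1 fell from 740.3 to 387 CPM and Prdm14, which restrains DNA methylation, from 81.1 to 42.1 CPM. Dppa3, expressed in naive cells, oocytes and primordial germ cells, rose instead and lay at 15.4 and 14.8 CPM in Pcgf3/5-/- and at 152 and 156 CPM in Pcgf3/5/6-/- (edgeR log2 fold change 3.34 with SE 0.13, adjusted p = 8.03e-40). Of these genes 5 to 9 fell with any 1 library left out, 5 of them without Pcgf3/5/6-/- replicate 1. In the general pluripotency list 8 of 11 rose and 2 fell, but only 2 rose without either of the Pcgf3/5/6-/- libraries and 4 in a fit of all 14 libraries. Pou5f1, the core factor OCT4, lay at 252 and 348 CPM in Pcgf3/5-/- and at 493 and 508 CPM in Pcgf3/5/6-/- (edgeR log2 fold change 0.74 with SE 0.21, adjusted p = 0.0013). Its values stood in the order of falling depth, and 10 of the 11 genes were higher in the shallower Pcgf3/5-/- library. Lin28a, an RNA-binding protein, went from 120.0 to 285 CPM (log2 fold change 1.25), beyond the Pcgf3/5-/- pair's own difference.

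Genes that respond to signals moved in both directions. Of 10 WNT response genes, 4 fell and 3 rose. Axin2, a feedback inhibitor, lay at 76.1 and 64.8 CPM in Pcgf3/5-/- and at 15.0 and 10.5 CPM in Pcgf3/5/6-/- (edgeR log2 fold change -2.47 with SE 0.16, adjusted p = 9.54e-24), Notum went from 26.5 to 4.58 CPM, Sp5 from 6.99 to 0.163 CPM and Dkk1, a secreted antagonist, from 12.1 to 39.8 CPM. The fourth gene that fell is Lef1, from 57.8 to 16.7 CPM. Lgr5, a WNT co-receptor gene, had its direction turned by loess offsets (log2 fold change 1.34 against -0.41), and 1 gene of the list rose there in place of 3. Of 13 Nodal and BMP response genes, 7 rose in every fit that left out a library and 2 fell, 1 of them without Pcgf3/5-/- replicate 1 or Pcgf3/5/6-/- replicate 1. The BMP targets Id2, Id1 and Id3 rose from 26.0 to 172 CPM, 58.8 to 215 CPM and 98.5 to 257 CPM, while the ligand gene Bmp4 lay at 126 and 117 CPM in Pcgf3/5-/- and at 27.003 and 30.3 CPM in Pcgf3/5/6-/- (edgeR log2 fold change -2.09 with SE 0.13, adjusted p = 1.23e-25). Of 13 FGF and ERK response genes, 5 rose and 2 fell, with 4 falling without Pcgf3/5-/- replicate 1 and 1 without Pcgf3/5/6-/- replicate 2. The early response genes Fos and Dusp4 went from 2.67 to 22.0 CPM and 2.15 to 15.8 CPM, and Egr1 had no count in Pcgf3/5-/- and was at least 67.8-fold higher. Spry2, an ERK feedback inhibitor, fell from 73.5 to 30.9 CPM.

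The integrated stress response was lower in Pcgf3/5/6-/- for 4 of 10 genes and higher for 1. Under loess offsets 7 were lower, and 2 genes were higher without Pcgf3/5-/- replicate 2. Chac1, a glutathione-degrading enzyme induced by ATF4, lay at 115 and 126 CPM in Pcgf3/5-/- and at 6.83 and 11.5 CPM in Pcgf3/5/6-/- (edgeR log2 fold change -3.72 with SE 0.16, adjusted p = 2.13e-35). Trib3 fell from 208 to 57.0 CPM, Atf4 from 254 to 81.9 CPM and Ddit3 from 56.1 to 20.4 CPM, and Ddit4 rose from 9.83 to 40.3 CPM. Among 19 cyclin-dependent kinase inhibitors and p53 targets, 11 rose and 4 fell, and 6 rose without Pcgf3/5/6-/- replicate 2. Cdkn2a, whose locus is a classical Polycomb target, went from 4.49 ± 0.220 to 20.4 ± 3.15 CPM (SD, n = 2), Btg2 from 25.7 to 128 CPM, Cdkn1b from 34.5 to 6.58 CPM and Gdf15 from 37.1 to 2.19 CPM. Of 13 interferon and antiviral genes, 7 rose and 5 fell, and 2 rose without Pcgf3/5/6-/- replicate 2. The RNA sensor gene Ddx58 lay at 156 and 158 CPM in Pcgf3/5-/- and at 9.76 and 13.6 CPM in Pcgf3/5/6-/- (edgeR log2 fold change -3.76 with SE 0.16, adjusted p = 1.36e-36). Stat2 fell from 72.4 to 25.7 CPM, and Isg15 had its direction turned by loess offsets (log2 fold change 1.31 against -0.34).

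Glycolysis genes were higher in Pcgf3/5/6-/-, in an order that also matched depth. Of 16 glycolysis and hypoxia genes, 9 rose and 3 fell, but 2 and 3 rose without Pcgf3/5/6-/- replicate 1 or 2. Their summed level was 3624 and 4681 CPM in Pcgf3/5-/- and 6325 and 6517 CPM in Pcgf3/5/6-/-, in the order of falling depth, whose part was not tested. Slc2a1, the glucose transporter GLUT1, lay at 329.9 and 412 CPM in Pcgf3/5-/- and at 774 and 781 CPM in Pcgf3/5/6-/- and no longer passed without either Pcgf3/5/6-/- library. Ndrg1 and Pdk1, which respond to hypoxia, did not follow depth within the Pcgf3/5-/- pair: Ndrg1 lay at 70.8 and 55.1 CPM in Pcgf3/5-/- and at 253 and 258 CPM in Pcgf3/5/6-/- and Pdk1 at 47.3 and 40.2 CPM in Pcgf3/5-/- and at 165 and 144 CPM in Pcgf3/5/6-/-. Car9, a hypoxia target too, fell from 7.65 to 2.37 CPM. In the cholesterol synthesis list 7 of 15 genes rose and 3 fell (1 without Pcgf3/5/6-/- replicate 2), led by Insig1, a sterol sensor partner, from 16.9 to 78.1 CPM, and Dhcr7 from 66.1 to 179 CPM.

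Among genes of the PCGF6 complex, Mga fell and Max rose. Of 15 PCGF6 complex genes, 4 rose, 1 fell and 10 did not pass. Without either Pcgf3/5/6-/- library 2 rose, without Pcgf3/5-/- replicate 1 or 2 the number that fell was 5 or 3, and under loess offsets 3 fell. Mga, the scaffold and E-box reader, lay at 188 and 189.7 CPM in Pcgf3/5-/- and at 92.7 and 91.7 CPM in Pcgf3/5/6-/- (edgeR log2 fold change -1.03 with SE 0.14, adjusted p = 3.99e-10), and Max, its partner, had a log2 fold change of 0.68 and rose. L3mbtl2, E2f6, Tfdp1 and Rnf2 (RING1B) did not pass, with log2 fold changes of -0.14, -0.16, -0.10 and -0.30. Of 10 PCGF3/5 partners, 4 rose and 0 fell, led by Pcgf5 and by Auts2, from 16.4 to 38.1 CPM, and 2 rose without either Pcgf3/5/6-/- library. Of the other 15 PRC1 genes, 8 rose and 3 fell, and 5 rose without Pcgf3/5/6-/- replicate 1. Bcor, of the PCGF1 complex, rose from 31.8 to 78.0 CPM, while Pcgf1 and Bmi1 (PCGF4) fell from 57.4 to 30.6 CPM and 23.3 to 10.6 CPM. Of 11 PRC2 genes, 3 rose and 1 fell, with 1 rising and 0 falling without either Pcgf3/5/6-/- library, 4 falling without Pcgf3/5-/- replicate 1, and 5 rising and 4 falling under loess offsets. Phf19, an accessory subunit, went from 3.13 to 12.01 CPM. Among 9 DNA methylation and demethylation genes, 4 rose and 1 fell, whereas 4 fell under loess offsets, 2 and 3 without Pcgf3/5-/- replicate 1 or 2, and 0 without either Pcgf3/5/6-/- library. The methyltransferase genes Dnmt3b and Dnmt3a went from 89.4 ± 9.29 to 195 ± 9.68 CPM and 87.8 ± 4.15 to 175 ± 11.8 CPM (SD, n = 2), and Tet2 fell from 259 to 169 CPM but no longer passed without either Pcgf3/5/6-/- library.

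The promoter state in both lines was then set beside the RNA change for the 13650 tested genes with an annotation, of which 33.0% rose and 28.6% fell. RING1B peaks fell from 5586 (6829573 bp covered) in Pcgf3/5-/- to 3068 (3811868 bp) in Pcgf3/5/6-/-. The 1413 genes whose promoter had a RING1B peak in Pcgf3/5-/- and not in Pcgf3/5/6-/- had a median log2 fold change of 0.68, with 54.5% raised and 14.9% lowered. The 810 that kept the peak had a median of 1.04, with 57.9% raised and 17.9% lowered, and the 92 that gained one a median of -0.90, with 14.1% raised and 60.9% lowered. Genes without a peak in either line had a median of -0.02. Under loess offsets the medians were 0.49, 0.45, -0.95 and -0.03 in that order. The lost and kept groups thus changed places between the scalings, and kept genes were the lower ones (median mean log2 CPM 2.46 against 3.96). The share raised was above that of all genes in both groups with RING1B in Pcgf3/5-/-, whether the peak was lost or kept. Of 3519 annotated genes with RING1B in Pcgf3/5-/-, only 2223 were tested. A gene silent in Pcgf3/5-/- passed the filter only if it was higher in Pcgf3/5/6-/-. This can lift the share raised and the medians here and in the peak groups below, and how many genes passed that way is not given here.

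The fold change was not larger where PCGF6 was also called. Among genes that lost RING1B, the 481 with a PCGF6 peak in Pcgf3/5-/- had a median of 0.36 and the 932 without one 0.90 (loess 0.32 and 0.58). Those with PCGF6 were the higher genes (median mean log2 CPM 4.95 against 3.50), and the fold change followed level, whose part was not tested. Among genes that kept RING1B, levels were alike (2.45 with PCGF6 and 2.46 without). The medians there were 0.96 and 1.07 (loess 0.30 and 0.47). The 587 genes with PCGF6 in both wild-type and Pcgf3/5-/- had a median of 0.33, with 45.3% raised and 20.1% lowered. Of the 272 genes with PCGF6 but no RING1B in either line, 23.5% rose and 36.03% fell. For PRC2, lost and gained peaks stood in the same order as for RING1B. The 931 promoters that lost SUZ12 had a median of 1.01, the 229 that gained it -0.49, and the 544 that lost both RING1B and SUZ12 1.16, with 68.2% raised. The 803 that lost H3K27me3 had a median of 1.27 and the 741 that gained it -0.29. H3K27me3 peaks numbered 8063 in wild-type, 21239 in Pcgf3/5-/- and 14126 in Pcgf3/5/6-/-. H2AK119Ub1 peaks numbered 1741 in wild-type, 128786 in Pcgf3/5-/- and 14353 in Pcgf3/5/6-/-, covering 1117472, 77984519 and 18610327 bp. Both lists were thus shortest in wild-type and longest in Pcgf3/5-/-. The H2AK119Ub1 library of Pcgf3/5-/- came from another clone by its file label. Genes that lost that mark had a median of 0.05 and those that kept it 0.21. All peaks are the authors' calls, with 1 library per antibody and line, so peak numbers also move with how much was called.

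**Figure D4:**
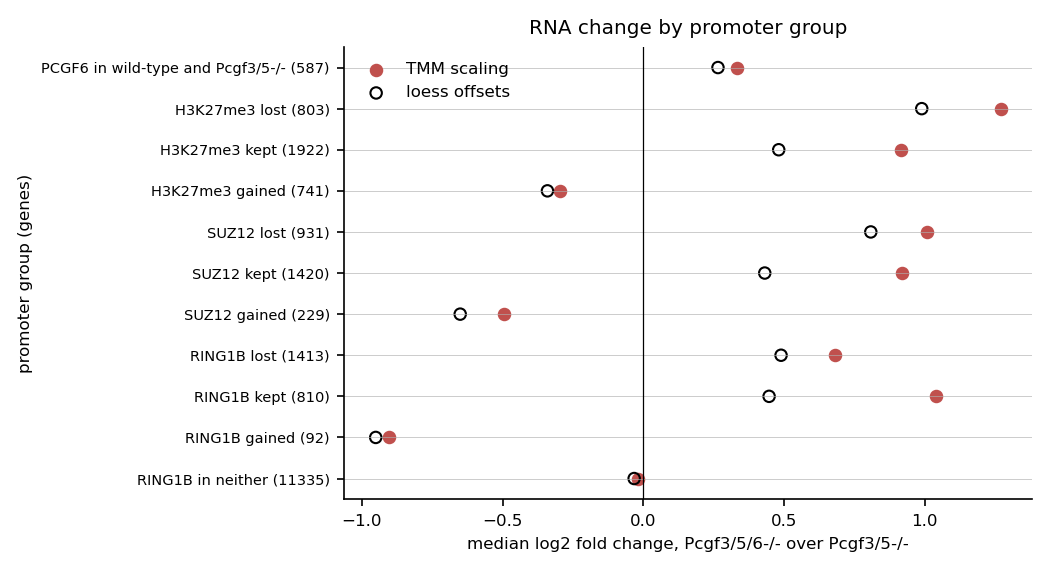
Median log2 fold change of Pcgf3/5/6-/- over Pcgf3/5-/- (horizontal axis) for genes grouped by peaks within 2.5 kb of the start, with TMM scaling (red) and with loess offsets (open), and the number of genes in brackets; lost, kept and gained are from Pcgf3/5-/- to Pcgf3/5/6-/-. Groups that gained RING1B, SUZ12 or H3K27me3 lie below 0 and all groups that lost or kept them lie above 0 under both scalings.

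To ask whether the change depended on the presence of PCGF3 and PCGF5, the same loss was read in wild-type cells in a fit of 8 libraries, Pcgf3/5/6-/- against Pcgf3/5-/- and Pcgf6-/- against wild-type, which share no library. Of 15497 genes, 5359 rose (34.6%) and 4498 fell (29.0%) in the first contrast and 4958 (32.0%) and 4011 (25.9%) in the second. The same 2691 genes rose in both, 50.2% of the first and 54.3% of the second, and 2133 fell in both (47.4% and 53.2%). Another 673 rose in the first and fell in the second and 702 did the reverse. Across genes, which are not independent replicates, the log2 fold changes had Pearson's r = 0.53 and Spearman's rho = 0.45. The difference between the contrasts passed the test for 7405 genes (47.8%), 3498 of them (22.6%) with a higher and 3907 (25.2%) with a lower fold change in the absence of PCGF3 and PCGF5.

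Germline genes often had a lower fold change in the cells without PCGF3 and PCGF5. Of the 68 tested germline genes, the difference was lower for 34 and higher for 7, against 25.2% and 22.6% of all genes. Asz1, a piRNA factor, was at 0.371 CPM in wild-type and 138 CPM in Pcgf6-/- (log2 fold change 8.46) and went from 4.71 to 35.6 CPM between Pcgf3/5-/- and Pcgf3/5/6-/- (difference -5.53, SE 0.52, edgeR adjusted p = 2.05e-07). Sycp1 was at 2.28 CPM in wild-type and 79.4 CPM in Pcgf6-/-, against 4.09 and 18.1 CPM in Pcgf3/5-/- and Pcgf3/5/6-/- (difference -3.04, SE 0.34, edgeR adjusted p = 1.28e-06). Mael was an exception, with a difference of 2.29, SE 0.20, edgeR adjusted p = 7.3e-08: it began at 22.9 CPM in wild-type and 5.43 in Pcgf3/5-/-, and ended at 212 in Pcgf6-/- and 248 in Pcgf3/5/6-/-.

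Most trophoblast genes rose in both backgrounds, and most had a higher fold change in the cells without PCGF3 and PCGF5. In Pcgf6-/- against wild-type 11 of 14 rose and 1 fell (median log2 fold change 1.97), against a median of 3.64 between Pcgf3/5-/- and Pcgf3/5/6-/- in the same fit, and 12 of 14 differences were higher and 0 lower. Among the genes with little change in the wild-type background, Hand1 was at 0.739 CPM in wild-type and 1.33 CPM in Pcgf6-/-, and Gata2 at 6.34 CPM in wild-type and 6.38 CPM in Pcgf6-/-, while both rose between Pcgf3/5-/- and Pcgf3/5/6-/- (difference for Gata2 4.07, SE 0.38, edgeR adjusted p = 1.64e-07). Elf5 and Rhox6 were the 2 genes whose difference was not called. Cdx2 is thus among the 12, where the higher difference marks a smaller fall than in the wild-type background and not a rise. Among imprinted genes 15 of 31 differences were higher and 9 lower. Cdkn1c was at 2.65 CPM in wild-type and 3.57 CPM in Pcgf6-/- (difference 6.04, SE 0.41, edgeR adjusted p = 4.08e-09), whereas H19 was at 0.810 CPM in wild-type and 89.6 CPM in Pcgf6-/- (difference -0.65, SE 0.38, edgeR adjusted p = 0.232). For the two-cell-like genes 7 of 17 were higher and 1 lower, and for glycolysis and hypoxia 11 of 16 were higher and 2 lower, with the depth order given above. Of the 12 naive pluripotency genes 5 were higher and 6 lower. Otx2 and Dnmt3b moved in opposite directions in the 2 backgrounds: Otx2 was at 4.93 CPM in wild-type and 0.874 CPM in Pcgf6-/- and rose to 28.5 CPM in Pcgf3/5/6-/- (difference 8.02, SE 0.66, edgeR adjusted p = 4.11e-08), and Dnmt3b fell from 158 to 69.2 CPM in the wild-type background (difference 2.29, SE 0.14, edgeR adjusted p = 1.02e-09). The 4 lines are separate clones, so background and clone cannot be told apart here either.

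**Figure D5:**
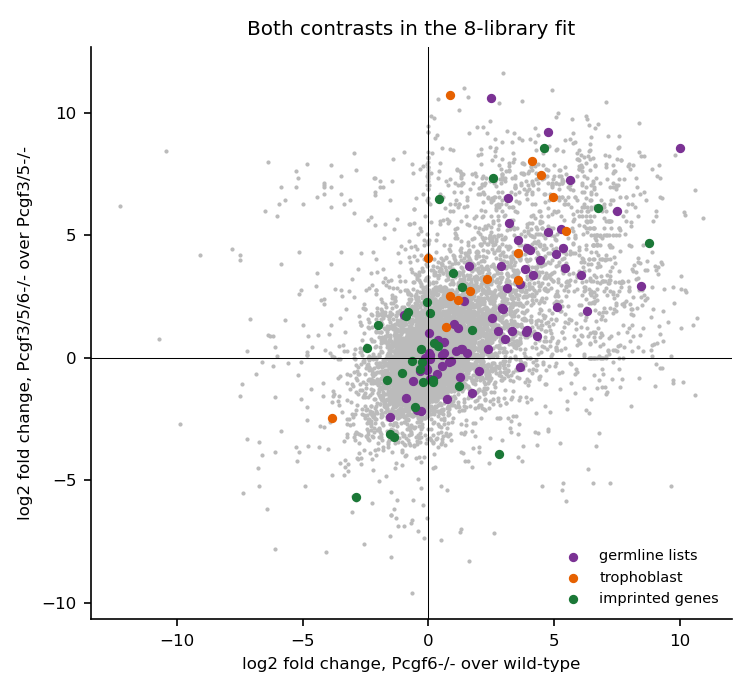
Log2 fold change of Pcgf3/5/6-/- over Pcgf3/5-/- (vertical) against that of Pcgf6-/- over wild-type (horizontal) for 15497 genes in the 8-library fit, with 1 point per gene; germline lists are purple, trophoblast genes orange and imprinted genes green. Most germline genes lie to the right of 0, and trophoblast genes other than Cdx2 lie above 0.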

How the data were processed

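RNA-seq was read from the count table of the series: 2 libraries each of Pcgf3/5/6-/-, Pcgf3/5-/-, Pcgf6-/- and wild-type cells, grouped by their titles. The values are raw counts per gene symbol as the authors deposited them. TopHat2 2.1.1, HTSeq 0.7.2, Bowtie 1.2.2, MACS2 2.1.1 and Picard 1.62 with build mm9 are named in the submitters' processing notes without their roles, and the use of strand in counting is not given in the sources used here. Without strand, reads from overlapping genes cannot be told apart. Peak lists hold the -log10 q of each peak as deposited, and each was called on 1 ChIP library.

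The 4 libraries were fitted with edgeR 4.0.16 in R 4.3.3 (filterByExpr, TMM, quasi-likelihood test, Benjamini-Hochberg adjustment over 13899 genes, threshold 0.05). The difference between backgrounds was an interaction term in a fit of 8 libraries. Totals per library ran from 2912086 to 7099900 counts in the 4-library comparison. A gene with 0 counts in a line was set at a floor of 3 counts over that line, which covers counting error only. The spread between libraries of a line exceeded sampling noise (chi-square per degree of freedom 5.87 in Pcgf3/5-/- and 1.18 in Pcgf3/5/6-/-). On simulated data, 90% of genes changed 2-fold and 98% of genes changed 4-fold were recovered among 13899 genes with 12 false calls, and 74% and 97% among 15497 genes for the interaction, with 11. These data had only 100 well-counted genes changed at each fold, up and down in equal number. They had no trend with level, and their spread was taken from the same libraries. The numbers therefore give no error rate for a change as broad and as level-dependent as the one seen here. Exact permutation tests of 2 against 2 libraries cannot go below p = 0.333 and were not used.

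A promoter held a peak when at least 1 bp of it lay within 2.5 kb of an annotated start in mm9; 22045 genes matched the annotation. PCGF6 peaks that overlapped one in Pcgf6-/- were left out. Promoter bases were read from the mm9 genome.

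The comparison and the gene lists were chosen with earlier results of these data known. Named genes are the 10 that rose and the 10 that fell most (mean log2 CPM of at least 2, lines not overlapping), and in each list up to 4 raised and 3 lowered members with the largest change. Other list members named were chosen after their values were seen. Lists are described by counts and medians beside those of all genes, without a set test. Alternatives were RLE factors, DESeq2 1.42.0, no filter, each library left out, thinning, loess offsets, all 14 RNA libraries, a replicate block, and other windows, peak thresholds and overlaps. Loess offsets for the promoter groups and the omission of chromosome 14 were added after seeing the data.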

Additional observations from a re-analysis of the deposited data

Results flagged for a closer look

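The fold change of 15 genes named above for the size of their change, or as targeted genes, differed between the Pcgf3/5-/- and the wild-type background by the interaction test of edgeR at an adjusted p below 0.05. The values below are the log2 fold change of Pcgf3/5/6-/- over Pcgf3/5-/- minus that of Pcgf6-/- over wild-type. Where a line had no count, as for Pcgf6 in Pcgf6-/- and Dlx3, Rbm46 and 1600014K23Rik in Pcgf3/5-/-, the value depends on the prior count. The difference was 11.51 for Pcgf6, which had 0 counts in Pcgf6-/- and was present in Pcgf3/5/6-/-. It was 8.68 for 1600014K23Rik, 9.60 for Dlx3, 6.02 for Rbm46, 4.86 for Car4, 3.97 for Igf2 and 3.81 for Alppl2. For Eif2s3y on the Y chromosome it was 18.88, and its RNA was nearly absent from Pcgf3/5-/- and Pcgf6-/- and present in wild-type and Pcgf3/5/6-/-. The difference was negative for Plagl1 (-2.80), Htr5a (-3.12), Cdx1 (-1.46), Pglyrp1 (-2.37), C330008G21Rik (-10.87), Ushbp1 (-3.14) and Igfals (-3.02).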

How the results depend on the processing

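The number of genes called was 8568 and ran from 6224 to 9753 when 1 library was left out. It was 6829 with DESeq2, 9652 with no filter and 4062 with a log2 fold change of at least 1 as a second condition. No gene called in both the main analysis and an alternative had opposite directions in any of 11 alternatives. The difference between backgrounds was called for 6006 to 8565 genes over its alternatives, against 7405. The replicate numbers share only a number: the correlation of deviations between same-numbered libraries was 0.06, and with the replicate block 8540 genes were called, and 8165 for the difference between backgrounds.

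Over 176 named genes and 1895 alternative values, 1798 kept their direction and their side of the threshold, 93 lost the call (34 genes) and 4 turned. Turned values were -0.34 for Isg15, -0.040 for Kdr and -0.41 for Lgr5 under loess offsets, and -0.43 for Kdr without Pcgf3/5/6-/- replicate 1, whose values ran from -0.43 to 1.77 as libraries were left out. The cause was not tested.

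The median of the group that lost RING1B (0.68) was 0.87 with -log10 q of at least 10, 0.49 under loess offsets and 0.57 to 0.76 with 1 library left out. For the group that kept it (1.04) it was 0.45 under loess offsets and 0.77 to 1.25 with 1 library left out. For the group that gained it (-0.90) it was -0.82 within 1 kb and -1.01 to -0.83 with 1 library left out. For genes with PCGF6 in both lines (0.33) it was 0.43 with -log10 q of at least 10, 0.30 in the fit of 14 libraries, 0.27 under loess offsets, 0.35 without chromosome 14 and 0.30 to 0.32 with 1 library left out. The cause was not tested. The Pcgf3/5/6-/- libraries hold fewer counts, which limits low genes most, and each line is 1 clone.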

Other observations

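Families of genes with a shared symbol stem and at least 8 tested members, 230 in all, were also counted, and those described here were chosen after their values were seen. Their counts are to be read against 32.9% raised and 28.8% lowered over all genes tested. In the lowest of the 10 level groups 926 of 1390 genes rose. A member that passed the filter through 1 line alone had to differ, and how many did so is not given here. Keratins, the filament proteins of epithelia, rose in 18 of 20 cases and fell in 1 (median log2 fold change 3.69, loess 16 and 1). Krt19 had 10.6 and 8.27 CPM in Pcgf3/5-/- and 283 and 299.6 CPM in Pcgf3/5/6-/-, and Krt14 had 0.133 and 0.197 CPM against 46.5 and 40.8 CPM. Krt10 was the one that fell, from 19.8 and 21.7 CPM to 8.78 and 10.5 CPM. Claudins, which seal epithelial junctions, rose in 9 of 13 cases and fell in 1. Carbohydrate sulfotransferases (Chst) rose in 12 of 12 cases (loess 9), and Chst13 had 0.663 and 0.394 CPM against 32.5 and 28.6 CPM. Collagen genes rose in 17 of 26 cases and fell in 2 (loess 13 and 5), WNT ligands in 8 of 10 and fell in 1 (loess 5 and 1), and the X-linked Rhox homeobox genes in 8 of 9.

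The X-linked Xlr genes moved the other way, with 9 of 10 lowered and 0 raised (median -2.01). Xlr3a had 79.0 and 99.0 CPM in Pcgf3/5-/- and 24.1 and 20.6 CPM in Pcgf3/5/6-/-, and Xlr5a had 42.2 and 50.4 CPM against 11.7 and 8.37 CPM. The Xlr copies are similar in sequence, so their separate values are uncertain. Host genes of small nucleolar RNAs (Snhg) fell in 8 of 11 cases and rose in 0. Zinc-finger genes with the stem Zfp fell in 173 of 336 cases and rose in 54 (median -0.46). Cep genes, which encode centrosomal proteins, fell in 17 of 30 cases and rose in 6. Ribosomal protein genes were higher in Pcgf3/5/6-/- (Rpl 39 of 50 raised, Rps 32 of 46), but 49 of 50 Rpl genes were also higher in the less deeply sequenced Pcgf3/5-/- library, and the part of depth was not tested.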
